A study of Homo sapiens with 6 samples.

Results

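The genes described here encode the machinery of RNA polymerases I and III: the subunits of both enzymes, the factors that bring them to their promoters, the repressor MAF1 and the RNA end-binding protein La. They were chosen by name. A probe was a member if its platform gene symbol started with POLR1, POLR3, GTF3 or SNAPC, or was 1 of 12 further symbols (BRF1, BRF2, BDP1, MAF1, TAF1A to TAF1D, UBTF, RRN3, TTF1 and SSB), and if its detection p-value was below 0.05 on at least 2 of the 6 arrays. Of 47323 probes on the arrays, 67 for 41 genes had such a symbol, and 57 of them, for 40 genes, were detected. Of the members, 56 were detected on all 6 arrays and 1, for TAF1D, on 5. The 10 probes left out were detected on no array. The only gene lost with them was SNAPC3. The cells were HEK293, an established human embryonic kidney line, grown in high-glucose medium with serum. They were left untreated (control, 0 min) or received sodium salicylate at 50 mM for 30 min or for 60 min. Each of these 3 groups has 2 arrays. Salicylate is what the body makes from aspirin, and the time points ask what changes early after it is added. None of the groups used is labelled as given another sodium salt or a mock treatment, so effects of handling, of sodium and of salicylate cannot be told apart.

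Polymerase I transcribes the long precursor of the ribosomal RNAs in the nucleolus. Polymerase III transcribes short RNAs: 5S ribosomal RNA, the transfer RNAs, 7SK, the RNAs of RNase P and RNase MRP, and U6. Growth signals are known to raise the output of both enzymes, and stress is known to lower it, in part through the activity of the RRN3 and MAF1 proteins. The arrays measured the level of the messenger RNAs of this machinery and say nothing of protein activity.

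Arrays detected between 20726 and 21740 of the 47323 probes, with median raw intensities of 143.1 to 147.6. Values below are log2 normalised intensities after background correction, and each change is a difference between group means, given with its fitted standard error (SE, n = 2 arrays per group). The words rose and fell are used where the limma p-value, adjusted over all 22377 detected probes, was under 0.05. Whether the paired samples of a group were grown as separate cultures is not given in the labels. The p-values therefore reflect sample-to-sample spread that may be only technical. Because the RNA was pooled from many cells, fewer expressing cells and less RNA per cell cannot be told apart. Of 7 genes listed as markers of HEK293 cells, 6 were detected on all arrays and PAX2 on 0. Of 14 markers of other cell types, 10 were detected on 0 arrays, among them the leukocyte marker PTPRC, while ALB and COL1A1 were detected on all 6. The summed normalised intensity of the 22 probes of those 14 markers was 885 and 937 in untreated cells, 914 and 900 at 30 min and 910 and 935 at 60 min. Only 4 of the 22 probes passed the detection filter. The sum therefore holds much signal near the background and does not measure marker expression alone.

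After 60 min the machinery genes had changed unevenly, with some subunits lower, some higher and most not past the threshold. Of the 57 member probes, 3 rose and 8 fell against control, where the background over all probes was 7.74% higher and 8.54% lower (16.3% in either direction). The members' shares were 5.26% higher and 14% lower, or 19.3% in either direction. The total is near the background, so it is no result about these genes in particular. The 3 probes that rose belong to TAF1D, GTF3C3 and POLR3GL. TAF1D was detected on only 1 control array and passed the detection filter through the treated groups, where it is high, so its rise is not taken as support. Among probes detected on all 6 arrays, 3 of 56 members rose, with POLR1D in place of TAF1D, and 8 fell. In that setting 9.77% of all probes were higher and 10.6% lower. The 8 that fell belong to POLR1G, POLR1C, TAF1C, POLR3E, GTF3C2, GTF3C4 (with 2 probes) and SNAPC4. The median change over the members was 0.0214, against 0.00131 over all probes, and the median size of a change was 0.139 against 0.162. The middle of the members' changes was thus close to 0. Leaving out control replicate 1 gave 4 falling members and leaving out control replicate 2 gave 5, and the count was 1 when the variance was modelled without its trend with intensity. In those 3 settings 3.36%, 3.08% and 2.54% of all probes were lower.

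**Figure D1:**
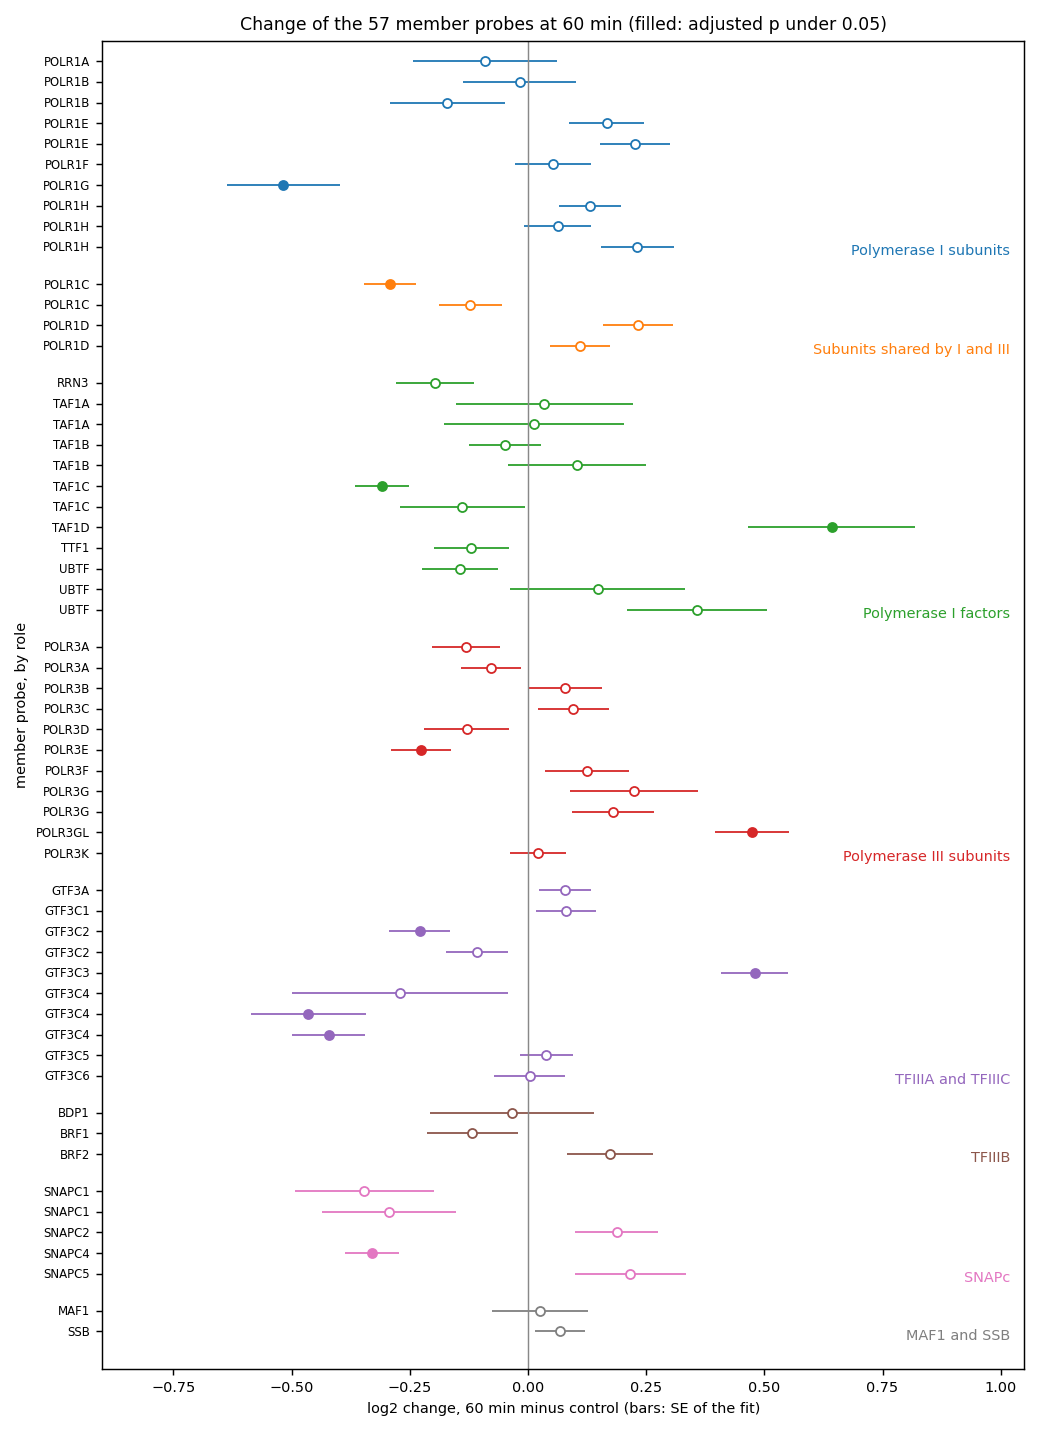
Log2 change of each of the 57 member probes, 60 min minus control (horizontal axis, bars are the SE of the fit), with probes listed down the page by role. Filled points passed the threshold (3 higher, 8 lower), and the changes span -0.52 to 0.64 on both sides of 0.

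Among the polymerase I subunits, 1 of 10 probes for 6 genes passed the threshold at 60 min. Counts by role, here and below, cover 2 to 12 probes each. Over all probes 16.3% passed in this comparison, and the counts are not read as results about a role. POLR1G, which pairs with POLR1E in a module bound to the enzyme core, read 8.23 and 8.03 in untreated cells, 7.92 and 8.13 at 30 min and 7.62 and 7.61 at 60 min. Both 60 min arrays lay below all 4 others, whose groups overlapped. POLR1G fell by 0.52 on the log2 scale, or 1.43-fold (SE 0.120, adjusted p = 0.0125). It missed the threshold when control replicate 1 was left out or the intensity trend dropped (adjusted p from 0.00472 to 0.127 over 15 alternatives). Its partner POLR1E had changes of 0.23 and 0.17 on its probes (adjusted p = 0.0567 and 0.182). The catalytic core subunits POLR1A and POLR1B gave -0.09 for the first and -0.02 and -0.17 for the 2 probes of the second, with adjusted p-values of at least 0.384. POLR1F, a stalk subunit, changed by 0.05, and the 3 probes of POLR1H, which takes part in RNA cleavage by the enzyme, by 0.06 to 0.23 (adjusted p at least 0.0579).

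The subunits POLR1C and POLR1D form a dimer that polymerases I and III share, and their probes lay on opposite sides of 0. The brighter POLR1C probe read 12.35 and 12.31 in untreated cells, 12.31 and 12.27 at 30 min and 12.05 and 12.03 at 60 min. The 60 min pair was the lowest and did not overlap the other groups, while control and 30 min met at 12.31. The fall at 60 min was 0.29 on the log2 scale, or 1.22-fold (SE 0.055, adjusted p = 0.00432, lost only without the intensity trend, where it was 0.0741, the highest of the 15 alternatives, with 0.00268 the lowest). A second POLR1C probe gave -0.12 (adjusted p = 0.244). For POLR1D the changes were 0.23 and 0.11 (adjusted p = 0.0528 and 0.272).

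The promoter factors of polymerase I contributed 12 probes for 7 genes, of which 1 rose and 1 fell at 60 min. TAF1A, TAF1B, TAF1C and TAF1D join TBP in the selectivity factor SL1, which recognises the ribosomal gene promoter. TAF1C was the most precisely measured of them, with 11.58 and 11.59 in untreated cells, 11.71 and 11.74 at 30 min and 11.28 and 11.26 at 60 min. No group overlapped another, and the middle time was the highest. TAF1C fell by 0.31 at 60 min, or 1.24-fold (SE 0.057, adjusted p = 0.00387), a call lost without the intensity trend (0.0654, with a range of 0.00243 to 0.0654 over 15 alternatives). The dimmer TAF1C probe gave -0.14 (adjusted p = 0.529).

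TAF1D was the dimmest of the members that passed. It read 5.64 and 5.89 in untreated cells, where only 1 of the 2 arrays detected it, 6.42 and 6.59 at 30 min and 6.37 and 6.45 at 60 min. Both treated groups lay above the controls and overlapped each other. The probe met the filter of 2 arrays only through these treated groups, where it is high, so its rise is described without being taken as support. Its rise at 60 min was 0.64, or 1.56-fold (SE 0.177, adjusted p = 0.0276), but 0.27 without background correction, where the call was kept. The call was lost in 5 of 14 alternatives: without either control array, without either 60 min array and with no detection filter (adjusted p = 0.0619 with no filter). TAF1D is a host gene: the RefSeq annotation of GRCh38.p14 places 8 small nucleolar RNA genes inside it. Probes for 4 of them were detected, and SNORA18 alone passed a threshold, with -0.86 at 30 min (adjusted p = 0.0189) and 0.48 at 60 min against 30 min (adjusted p = 0.0311). The host's own change at 30 min was 0.74 (adjusted p = 0.195).

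RRN3, known as TIF-IA, joins polymerase I to SL1 and is a known target of growth signalling. It read 9.06 and 9.15 in untreated cells, 9.49 and 9.41 at 30 min and 8.89 and 8.93 at 60 min. The 3 groups did not overlap, with 30 min highest and 60 min lowest. Neither comparison with control passed: 0.34 at 30 min (SE 0.082, adjusted p = 0.198) and -0.20 at 60 min (adjusted p = 0.127). The direct comparison of the times did pass, with 60 min lower than 30 min by 1.45-fold (log2 change -0.54, adjusted p = 0.00183). It was kept in all 15 alternatives (0.000487 to 0.041). RRN3 has near-identical transcribed pseudogenes, and a probe named for RRN3P1 gave -0.48 in the same comparison (adjusted p = 0.0229), so the source of the signal between copies is uncertain.

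The remaining polymerase I factors did not pass the threshold. UBTF, which binds across the ribosomal genes, had 3 detected probes with changes of -0.14, 0.15 and 0.36 at 60 min, and the brightest of them was the negative one. TTF1, the terminator-binding factor, gave -0.12. TAF1A had 0.03 and 0.01 and TAF1B -0.05 and 0.10 on their 2 probes each.

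Polymerase III has a large catalytic core and a small module of 3 subunits that acts at initiation. Its 11 probes for 9 genes included 1 that rose and 1 that fell at 60 min. POLR3GL, a subunit of the initiation module, read 9.88 and 9.76 in untreated cells, 9.74 and 9.73 at 30 min and 10.23 and 10.37 at 60 min. Both 60 min arrays were above all others. POLR3GL rose by 0.47 at 60 min, or 1.39-fold (SE 0.078, adjusted p = 0.00206), with the call lost under median scaling (0.054, range 0.00112 to 0.054 over 15 alternatives). Its paralogue POLR3G takes the same place in the enzyme and is known from dividing and pluripotent cells. The 2 detected POLR3G probes gave 0.22 and 0.18 (adjusted p = 0.3 and 0.186). Whether the paralogues differed in their change was not tested.

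POLR3E, which binds POLR3D at the periphery of the enzyme, read 10.85 and 10.82 in untreated cells, 10.93 and 10.84 at 30 min and 10.59 and 10.63 at 60 min. The 60 min arrays were the lowest, and the other groups overlapped. The fall at 60 min was 0.23, or 1.17-fold (SE 0.064, adjusted p = 0.0305). This call was lost in 6 of 15 alternatives, among them median scaling and the omission of control replicate 1, of control replicate 2 or of 60 min replicate 1 (0.0198 to 0.163). POLR3D itself gave -0.13. The catalytic subunits POLR3A and POLR3B gave -0.13 and -0.08 on 2 probes of the first and 0.08 on 1 of the second, and POLR3C, POLR3F and POLR3K gave 0.10, 0.12 and 0.02.

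TFIIIA and TFIIIC bind the internal promoters of 5S and transfer RNA genes. Of their 10 probes for 7 genes, 4 passed at 60 min, 2 of them for GTF3C4, where 16.3% of all probes passed. GTF3A is TFIIIA, the zinc finger protein that binds both 5S genes and 5S RNA. It read 12.51 and 12.44 in untreated cells, 12.54 and 12.52 at 30 min and 12.54 and 12.58 at 60 min. Both treated groups lay just above the controls and overlapped each other. The change at 60 min was 0.08 (SE 0.055, adjusted p = 0.384). The largest TFIIIC subunit, GTF3C1, gave 0.08, and GTF3C5 and GTF3C6 gave 0.04 and 0.00398.

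GTF3C3, a TFIIIC subunit that helps to place TFIIIB, had the lowest adjusted p-value of any member at 60 min. It read 10.60 and 10.59 in untreated cells, 10.79 and 10.76 at 30 min and 10.98 and 11.16 at 60 min. No group overlapped another, and the values were ordered with time. The rise at 60 min was 0.48, or 1.39-fold (SE 0.071, adjusted p = 0.0012), and the call was kept in all 15 alternatives (0.000398 to 0.0471).

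GTF3C4, a TFIIIC subunit with acetyltransferase activity towards histones, had a negative change at 60 min on each of its 3 probes. The brightest (ILMN_1885165) read 9.71 and 9.61 in untreated cells, 9.49 and 9.50 at 30 min and 9.27 and 9.21 at 60 min, again with no overlap between groups. It fell by 0.42, or 1.34-fold (SE 0.078, adjusted p = 0.00392), which missed the threshold when control replicate 1 was left out (0.0527, range 0.00248 to 0.0527 over 15 alternatives). The next (ILMN_1840934) read 7.85 and 7.84 in untreated cells, 8.09 and 7.92 at 30 min and 7.28 and 7.48 at 60 min. It fell by 0.46 at 60 min (SE 0.121, adjusted p = 0.0214), or by 0.30 without background correction, and the call was lost without either control array, without 60 min replicate 1 and without the intensity trend (0.0141 to 0.111 over 14 alternatives). The platform annotation ties both of these probes to sequence records outside RefSeq. The probe tied to the RefSeq transcript was dim and gave -0.27 (SE 0.229, adjusted p = 0.471).

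GTF3C2, a further TFIIIC subunit, fell by 0.23 on its brighter probe (SE 0.064, adjusted p = 0.0297). The values were 12.32 and 12.49 in untreated cells, 12.40 and 12.40 at 30 min and 12.19 and 12.16 at 60 min. The 60 min arrays were the lowest, and the control arrays lay on either side of the 30 min pair. Without control replicate 2 the change was -0.14 and the call was lost, as it was without 60 min replicate 2, under median scaling and without the intensity trend (0.0215 to 0.263 over 15 alternatives). The other probe gave -0.11.

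TFIIIB, which recruits polymerase III itself, showed 0 calls in 3 probes. BRF2, its subunit at U6-type promoters, gave 0.17, BRF1, its subunit at transfer RNA genes, gave -0.12 and BDP1 gave -0.03 at 60 min, with adjusted p-values from 0.228 to 0.922. SNAPc binds the upstream element of small nuclear RNA genes of polymerases II and III, and 1 of its 5 probes fell. SNAPC4, its largest subunit and the part that contacts DNA, read 11.77 and 11.76 in untreated cells, 11.69 and 11.73 at 30 min and 11.42 and 11.45 at 60 min. The spread within each group was small beside the gap to 60 min. SNAPC4 fell by 0.33, or 1.26-fold (SE 0.057, adjusted p = 0.00263), lost only without the intensity trend (0.0586, range 0.00167 to 0.0586 over 15 alternatives). SNAPC1 gave -0.35 and -0.29 on its 2 probes (adjusted p = 0.134 and 0.185), and SNAPC2 and SNAPC5 gave 0.19 and 0.22.

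MAF1, the repressor that binds polymerase III when nutrients or growth signals fail, read 9.33 and 9.23 in untreated cells, 9.27 and 9.09 at 30 min and 9.44 and 9.18 at 60 min. All 3 groups overlapped. Its change at 60 min was 0.02 (SE 0.101, adjusted p = 0.903), and the sign was negative under median scaling (-0.08), without control replicate 2 and without 60 min replicate 1. SSB, the La protein that protects the ends of new polymerase III transcripts, gave 0.07 (SE 0.053, adjusted p = 0.44).

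**Figure D2:**
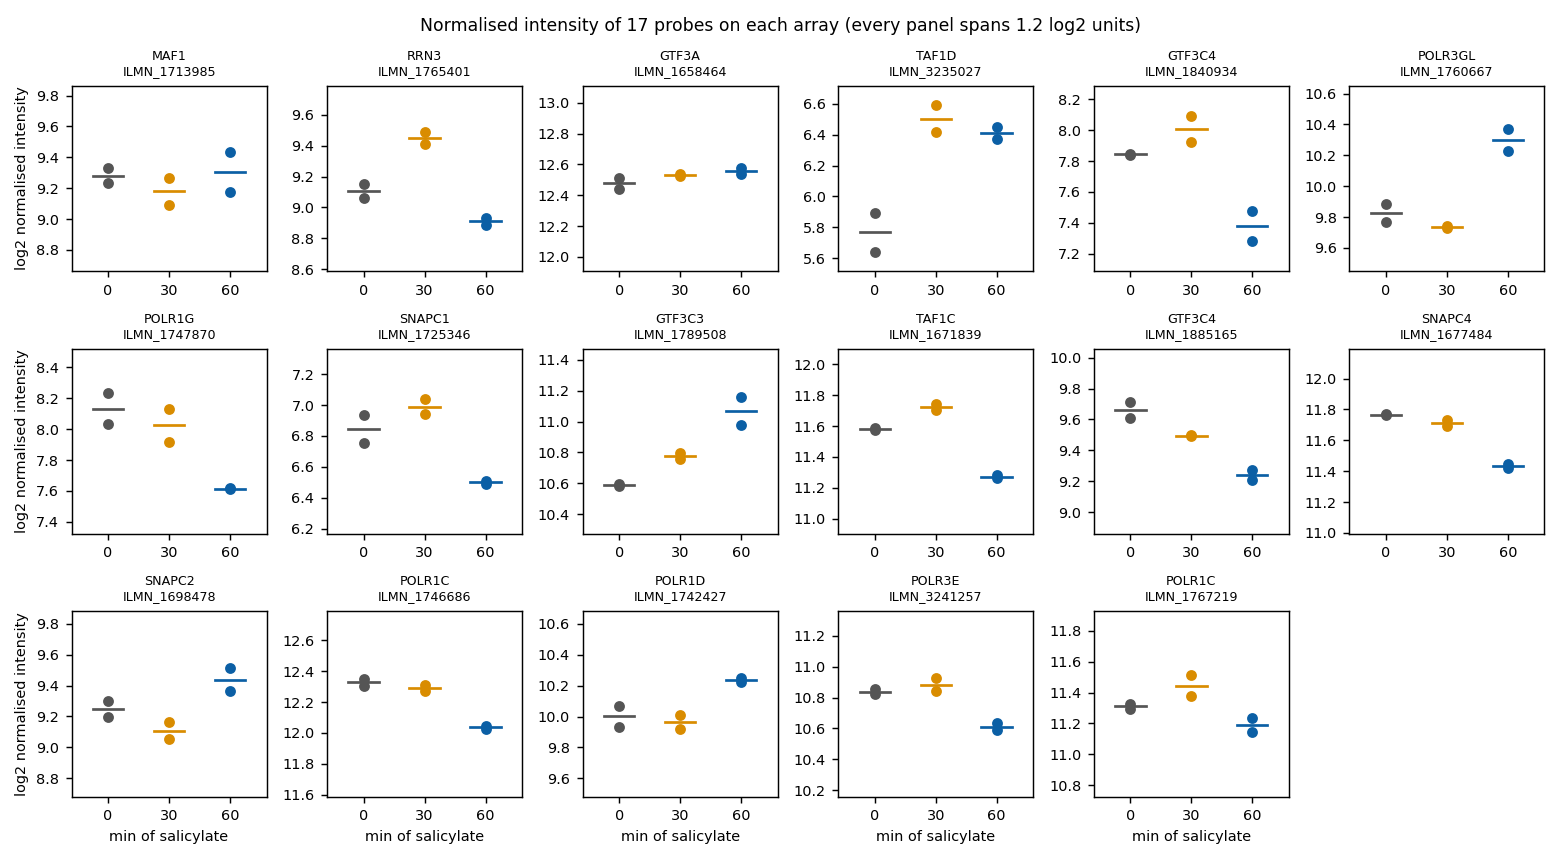
Log2 normalised intensity (vertical axes, all of equal span) of 17 probes on each array at 0, 30 and 60 min of salicylate (horizontal axes); points are arrays and lines are group means. RRN3 and TAF1C are highest at 30 min and lowest at 60 min, GTF3C3 is higher at each later time, and MAF1 and GTF3A overlap or nearly overlap between groups.

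At 30 min no member passed the threshold against control. The count was 0 of 57, with a background of 0.232% of all probes. Without adjustment, 7 members (12.3%) had a limma p-value under 0.05, as did 10.3% of all probes, and the lowest adjusted p-value among the members was 0.195. The changes ran from -0.23 for the brighter SNAPC1 probe to 0.74 for TAF1D. The next highest were 0.35 for a dim probe each of UBTF and TAF1A and 0.34 for RRN3. The median over the members was 0.0297, against 0.00132 over all probes.

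The 2 times were also compared directly. At 60 min against 30 min, 4 members were higher and 11 lower, where the background was 7.5% higher and 7.98% lower (15.5% in either direction). The members' shares were 7.02% higher and 19.3% lower, or 26.3% in either direction. Whether these shares differ from those of all probes was not tested. With median scaling, which moved the median of all probes to -0.0513, the split was 1 higher and 7 lower, and 2.47% of all probes were higher and 6.81% lower. It was 1 and 3 without 30 min replicate 1, 1 and 6 without 30 min replicate 2 and 2 and 6 without 60 min replicate 1, while 3.12% and 3.19%, 3.06% and 2.79%, and 5.52% and 6.18% of all probes were higher and lower in those settings. Without the intensity trend it was 1 and 3, beside 1.71% and 1.5% of all probes.

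RRN3, TAF1C and POLR3GL kept their calls in this comparison in all 15 alternatives. TAF1C was lower at 60 min than at 30 min by 1.37-fold (log2 change -0.45, SE 0.057, adjusted p = 0.000631, range 0.000271 to 0.0431), and POLR3GL was higher by 1.48-fold (0.56, SE 0.078, adjusted p = 0.0011, range 0.00037 to 0.0441). The dimmer TAF1C probe gave -0.36 (adjusted p = 0.0864). The brighter POLR1C probe, whose values are given above, and the dimmer one, at 11.14 and 11.24 at 60 min against 11.51 and 11.38 at 30 min, gave the same log2 change of -0.25 between the times (adjusted p = 0.00959 and 0.0232). Median scaling, a variance with no intensity trend and the omission of 30 min replicate 1 each ended both calls, and the second was also lost without 60 min replicate 1 (adjusted p from 0.00591 to 0.099 for the first over 15 alternatives and from 0.02 to 0.194 for the second over 14).

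The GTF3C4 probe ILMN_1840934 had the largest difference of any member between the times, -0.63 (SE 0.121, adjusted p = 0.00558), or -0.41 without background correction, and lost its call only without 30 min replicate 1 (0.0597, range 0.000718 to 0.0597 over 14 alternatives). SNAPC1 read 6.51 and 6.49 at 60 min, against 6.94 and 7.04 at 30 min, on its dimmer probe. That difference of -0.49 (adjusted p = 0.0417) was -0.25 without background correction and was lost in 10 of 14 alternatives, among them the omission of each array in turn (0.0331 to 0.208). The brighter SNAPC1 probe gave -0.06. SNAPC2, which read 9.51 and 9.36 at 60 min, against 9.05 and 9.16 at 30 min, was higher by 0.33 (adjusted p = 0.0249). POLR1D read 10.25 and 10.22 at 60 min, against 9.92 and 10.01 at 30 min, on its dimmer probe and was higher by 0.27 (adjusted p = 0.028). Both were lost under median scaling, without either 30 min array, without 60 min replicate 1 and without the intensity trend (0.0169 to 0.355 over 15 alternatives for SNAPC2 and 0.0267 to 0.487 over 14 for POLR1D). POLR1D stood at 0.17 under median scaling.

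The other calls between the times depended on single arrays. SNAPC4, the DNA-contacting part of SNAPc, was lower at 60 min by 0.28 (adjusted p = 0.00721), lost without 30 min replicate 2 and without the intensity trend (up to 0.0826). POLR3E was lower by 0.27 (adjusted p = 0.0143), lost without 30 min replicate 1 and without the intensity trend (up to 0.125). GTF3C3 was higher by 0.29 (adjusted p = 0.0161), lost in 5 of 15 alternatives, among them the omission of either 30 min array or of 60 min replicate 2 (up to 0.363). These probes, and those of GTF3C2, POLR1G and GTF3C4 named next, had passed at 60 min against control as well. GTF3C2 was lower by 0.23 (adjusted p = 0.0329), lost in 6 of 15 alternatives, among them the omission of any 30 or 60 min array (up to 0.174). POLR1G was lower by 0.41 (adjusted p = 0.0368), lost in 9 of 15, among them the omission of any array but control replicate 2 (up to 0.259). The brightest GTF3C4 probe was lower by 0.25 (adjusted p = 0.0444), lost in 10 of 15, among them the omission of any array (up to 0.182).

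**Figure D3:**
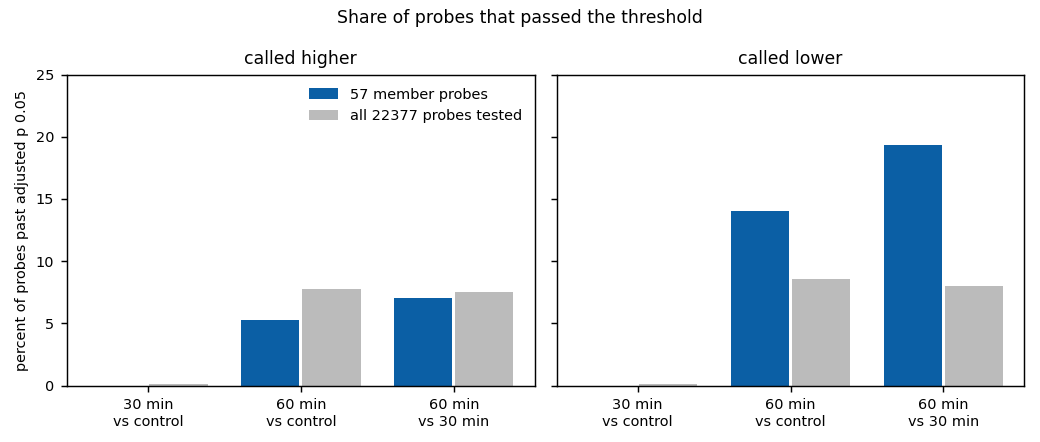
Share of probes past the threshold (vertical axis, percent) that were higher (left panel) or lower (right panel) in each comparison, for the 57 member probes and for all 22377 probes tested. The members' shares of lower probes were 14% for 60 min against control and 19.3% for 60 min against 30 min, beside 8.54% and 7.98% of all probes.

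Several genes could be checked with more than 1 probe. Of 40 genes, 14 had several member probes, and in 12 of these all probes had the same sign at 60 min against control. The exceptions were UBTF and TAF1B, neither with a call. The same share over all genes on the arrays was not computed. At 30 min against control, the probes differed in sign for GTF3C2, GTF3C4 and POLR1C and agreed for TAF1C. Within a gene the probes' changes lay a median of 0.137 log2 units apart. No gene had probes called in opposite directions, but GTF3C4 was the only gene with 2 called probes against control, so the calls of GTF3C2, POLR1C and TAF1C rest on 1 of 2 probes each.

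**Figure D4:**
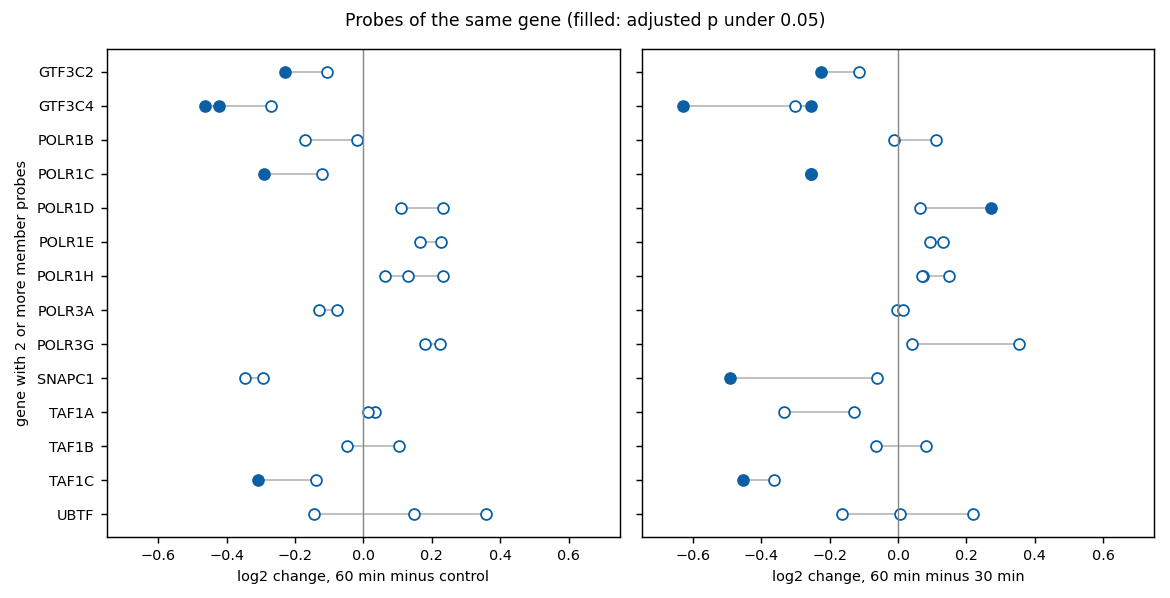
Log2 change of every member probe of the 14 genes with several probes, 60 min minus control (left) and 60 min minus 30 min (right); filled points passed the threshold. Probes of GTF3C4, POLR1C, TAF1C and GTF3C2 lie on the same side of 0 in both panels, and those of UBTF straddle it.

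The start regions of members that fell and rose were read to see what letters they share. RefSeq promoter windows (GRCh38.p14) were matched for 34 of the 40 genes, and the 250 bases before the start were searched on both strands. The letters CACGTG, the core E-box that MYC and related factors bind, occurred in 6 of 34 windows (17.6%), against 8.93% of the 10087 windows of genes detected on the arrays and 6.49% of 27305 genes. GTF3C4, POLR1G and GTF3C2 held it among the 6 of 7 falling genes that had a window. POLR1C, TAF1C and POLR3E fell and did not hold it. Of 3 genes with a rising probe 0 held it, and these include TAF1D, whose rise is not taken as support. Of 25 genes with a window and no call, 3 held it (GTF3C6, POLR3A and POLR3C). The counts are small, and whether the letters go with the calls was not tested. CCAAT was in 35.3% of members' windows and 35.4% of those of detected genes, GGGCGG in 52.9% and 66.1%, TATAAA in 5.88% and 5.87%, and the ETS letters CCGGAAGT in 5.88% and 6.89%. The cyclic AMP response element TGACGTCA was in 3 windows (BDP1, GTF3C1 and POLR1H), or 8.82% against 2.96%, and the NRF1 motif in 2 (GTF3A and GTF3C1), or 5.88% against 1.95%. None of these 4 genes (BDP1, GTF3A, GTF3C1 and POLR1H) had a called probe at 60 min against control. A match describes letters in the window and not a bound site. The first 3 windows below carry the E-box in capitals and belong to genes that fell, starting 35, 12 and 103 bases before the gene start. The last 2 belong to genes that rose and have TATAAA (GTF3C3, read here on its other strand) and CCAAT on either strand (POLR3GL) in capitals. The windows are chr9:132669785-132670034 (plus strand, the first listed of 2), chr19:45406394-45406643 (plus), chr2:27356765-27357014 (minus), chr2:196799684-196799933 (minus) and chr1:145964440-145964689 (plus).
GTF3C4: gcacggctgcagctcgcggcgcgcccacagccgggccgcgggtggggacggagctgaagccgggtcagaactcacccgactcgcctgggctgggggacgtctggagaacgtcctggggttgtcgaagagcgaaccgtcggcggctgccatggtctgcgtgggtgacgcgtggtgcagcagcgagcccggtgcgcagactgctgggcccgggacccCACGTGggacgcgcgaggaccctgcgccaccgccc
POLR1G: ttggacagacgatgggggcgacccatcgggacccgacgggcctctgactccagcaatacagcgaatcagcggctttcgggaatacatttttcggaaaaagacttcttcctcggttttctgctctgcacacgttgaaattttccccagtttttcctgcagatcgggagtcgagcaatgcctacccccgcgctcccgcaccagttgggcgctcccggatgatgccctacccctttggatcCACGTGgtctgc
GTF3C2: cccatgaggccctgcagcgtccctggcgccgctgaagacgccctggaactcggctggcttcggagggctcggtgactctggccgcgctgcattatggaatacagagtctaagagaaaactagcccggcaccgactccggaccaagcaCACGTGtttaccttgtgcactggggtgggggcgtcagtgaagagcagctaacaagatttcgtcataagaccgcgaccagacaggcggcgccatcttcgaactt
GTF3C3: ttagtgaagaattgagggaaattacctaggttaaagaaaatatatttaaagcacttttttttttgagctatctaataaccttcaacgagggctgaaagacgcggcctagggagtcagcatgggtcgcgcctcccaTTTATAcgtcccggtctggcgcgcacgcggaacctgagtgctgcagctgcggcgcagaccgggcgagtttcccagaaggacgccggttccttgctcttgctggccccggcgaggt
POLR3GL: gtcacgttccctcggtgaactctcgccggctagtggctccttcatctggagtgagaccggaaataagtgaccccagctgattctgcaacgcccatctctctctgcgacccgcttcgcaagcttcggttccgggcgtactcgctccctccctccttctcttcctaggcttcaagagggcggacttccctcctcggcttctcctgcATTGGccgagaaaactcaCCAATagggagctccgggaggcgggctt

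Other genes of the pathway were read from lists that hold no members. The subunits that all 3 polymerases share (POLR2E, POLR2F, POLR2H, POLR2K and POLR2L) had 5 probes and 0 calls at 60 min against control, with changes from -0.30 for POLR2E to -0.11 for POLR2L, all negative. The 8 probes of 7 subunits of polymerase II alone had 0 calls there, with a median of 0.071. Of 23 probes for 17 activators and regulators, 1 rose and 4 fell. Over all probes, 7.74% were higher and 8.54% lower in this comparison, and the counts of these short lists are not read as results about them. Both probes of MYC, which activates transcription by polymerases I and III, fell, by 0.53 and 0.62 (adjusted p = 0.000215 and 0.00441). Whether this bears on the members was not tested. SIRT7, an activator of polymerase I, fell by 0.33 and DDX21, a nucleolar helicase, by 0.20 (adjusted p = 0.0445 and 0.0228). The kinase gene MAPK3 rose by 0.24 on 1 of its 2 probes (adjusted p = 0.0297). TBP, shared by the factors of all 3 enzymes, gave -0.03. CRCP, a polymerase III subunit whose symbol falls outside the naming rule, had 0 calls in 4 probes.

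The RNAs that these enzymes make were also on the arrays, although labelling was primed on oligo(dT), per the labels' protocols, which favours RNAs with a poly(A) tail. Of 13 tested probes for polymerase III products, 9 were detected on all 6 arrays. Of these 9, 3 were higher at 30 min and 5 at 60 min, where 0.107% and 7.74% of all probes were higher. At either time 0 were lower. Their median change was 0.22 at 30 min and 0.32 at 60 min, a split by detection chosen after seeing the data. The other 4 (RMRP, VTRNA1-1, VTRNA2-1 and a second RN7SK probe) were detected on 2 to 5 arrays and passed the detection filter through the treated groups, where they are high, so their changes are not counted. RPPH1, the RNA of RNase P, was higher by 0.98 and 1.36 at the 2 times and RNU6-1, a gene for U6, rose by 0.30 at 60 min (adjusted p = 0.0131). The 3 probes for polymerase I products had 2 calls at 60 min, both higher and both for the same gene, RNA28SN5 (0.90 and 1.79). The RNA18SN5 probe gave 0.25 (adjusted p = 0.371). At 30 min all 3 were negative and had 0 calls, with -0.37 and -0.10 for RNA28SN5 and -0.53 for RNA18SN5. All of these changes share the control arrays, and the difference between machinery and products was not tested.

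**Figure D5:**
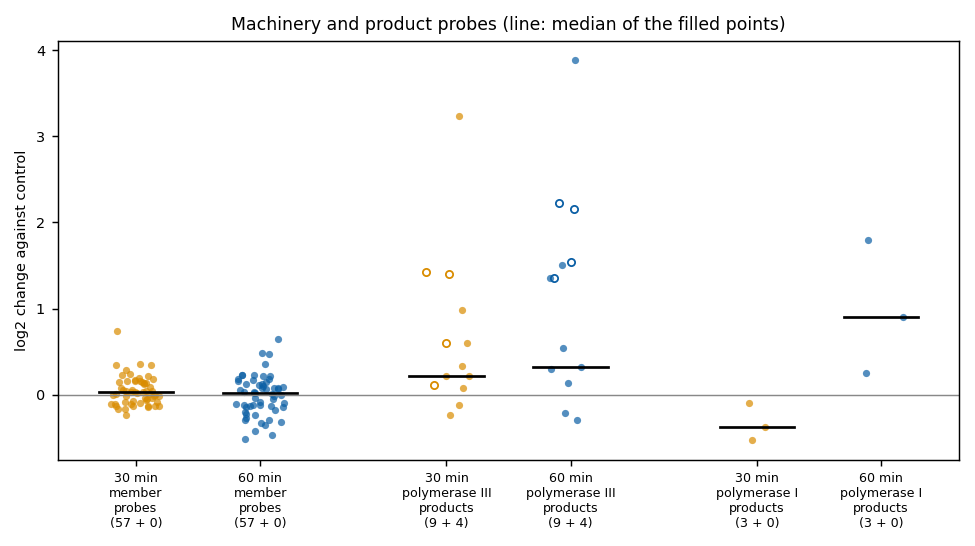
Log2 change against control (vertical axis) at 30 and 60 min for the 57 member probes, 13 probes of polymerase III products and 3 probes of polymerase I products. Filled points are the members and the product probes detected on all 6 arrays, open points the 4 product probes detected on fewer, and lines the medians of the filled points. Member probes stay between -0.52 and 0.74, while 1 product probe, RNA5S9 (5S ribosomal RNA), reaches 3.23 at 30 min and 3.89 at 60 min. The medians of the filled polymerase III products are 0.22 and 0.32, and RN7SL1 among them is at -0.29 at 60 min.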

How the data were processed

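Total RNA from HEK293 cells was hybridised to Illumina bead arrays. The authors deposited linear intensities, not normalized, with a detection p-value beside each, per the file headers. The deposited log2 table matched, to within 5e-07, those intensities once quantile normalized and logged without a background step, which served as an alternative. The submitters' processing notes name GenomeStudio 2011.1 and R 2.15.3.

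Here intensities were background-corrected with neqc of limma 3.58.1 (R 4.3.3, offset 16, negative controls inferred from detection p-values), quantile normalized and taken to log2. Probes with a detection p-value under 0.05 on at least 2 of 6 arrays were kept (22377). All arrays were fitted together with a mean per group and trended moderated variances (3 residual and 9.25 prior degrees of freedom), and Benjamini-Hochberg adjustment ran over all kept probes. The median SE of a member's change was 0.0794. The number of arrays limits the precision.

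Gene symbols came from the platform annotation (30113 probes with 1 symbol, 8 with several, 17202 not in the table used here). The symbols of all 41 genes with a member symbol were found in RefSeq by gene identifier. Members, lists and tests were chosen with earlier results of these data known. Described in full are MAF1, GTF3A, RRN3 and up to 14 other called probes by size of change, and the rest by role with their extremes. POLR1F, POLR1G and POLR1H, first listed under older names, carried a POLR1 symbol and were members. In data simulated for 22377 probes, 67 probes were changed by 1 on the log2 scale, 67 by 0.5 and 66 by 0.25. Of those changed by 0.5, 49.3% were called at 60 min against control, and of those changed by 0.25, 16.7%. The adjusted threshold depends on how many probes change, and 3645 were called in the real comparison. These shares therefore do not give the chance of a call in the real data. Alternatives covered background, scaling, filter, 1 probe per gene, variance model, samples fitted, replicate block and omission of each array.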

Additional observations from a re-analysis of the deposited data

Results flagged for a closer look

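The 60 min against 30 min comparison is also the test of whether the effects at the 2 times differed. Both effects are taken against the same controls. It was passed by 15 of 57 member probes (26.3%), where 15.5% of all probes passed. Whether the members' share differs from that of all probes was not tested. Lower at 60 min than at 30 min on the log2 scale were GTF3C4 (-0.63 and -0.25 on 2 probes), RRN3 (-0.54), SNAPC1 (-0.49), TAF1C (-0.45), POLR1G (-0.41), SNAPC4 (-0.28), POLR3E (-0.27), POLR1C (-0.25 on both probes) and GTF3C2 (-0.23). Higher at 60 min were POLR1D (0.27), GTF3C3 (0.29), SNAPC2 (0.33) and POLR3GL (0.56). With 2 arrays a group, no single array could be tested as standing apart from its group.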

How the results depend on the processing

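Of 26 called changes of single member probes, 4 were kept in all alternatives in which they were tested (GTF3C3 for 60 min against control, and RRN3, TAF1C and POLR3GL for 60 min against 30 min), and 22 were lost in at least 1 of up to 15. None turned its sign. Leaving out the intensity trend ended 18 calls, median scaling 10, no detection filter 5, the 2 groups alone 3, and no background correction and the replicate block 1 each, while cyclic loess, detection on all 6 arrays and 1 probe per gene ended 0. Omission of an array ended 6 to 11; such a fit assumes that the lone array left in a group varies like the others. For 60 min against control, falling members numbered 1 without the intensity trend and 4 to 8 without single arrays. For 60 min against 30 min, members numbered 1 higher and 7 lower with median scaling (median change -0.0962), 1 higher and 3 lower without the intensity trend, and 1 to 4 higher and 3 to 9 lower without single arrays. Changes without a call that turned sign were MAF1 at 60 min against control (-0.0827 with median scaling, and from -0.104 without 60 min replicate 1 to 0.153 without single arrays, with -0.0262 without control replicate 2) and against 30 min (from -0.0034 to 0.254 without single arrays), GTF3A at 60 min against 30 min (-0.00755 with median scaling), POLR1D at 30 min (from -0.109 to 0.0293 without single arrays) and GTF3C2 at 30 min (0.0115 with median scaling, and from -0.0915 to 0.0834 without single arrays). The cause was not tested. Same-numbered arrays did not deviate together (correlations of 0.0313, 0.0779 and -0.0778), so the numbers were not taken as pairs; with the replicate block 4 members were higher and 8 lower at 60 min against control, 0 at 30 min, and 4 and 10 at 60 min against 30 min. Dim probes, such as TAF1D, depend most on the background correction.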
